A study of Mus musculus with 8 samples.

Results

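Femoral cortical bone expresses a broad set of proteins that build, bundle, brake and anchor actin filaments, and 9 of the genes encoding them are described here across mice with and without Fgfr1 in the late osteoblast lineage. The 9 actin regulators are the formin Diaph3, the elongation factor Enah, the filament bundlers Fscn1, Pls3 and Synpo, the filament-side proteins Cald1 and Cnn3, the membrane linker Ezr and the small GTPase Rhoc. They were chosen by name, with earlier results of these data known, from a sheet of 1994 genes that the submitters had listed for differing between the genotypes. All 9 symbols were found in that sheet. Every listed gene had already passed the authors' own test, so passing a test here is not independent evidence of a difference, and each count of called members is read against the share of all listed genes called the same way.

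The Control group carried floxed Fgfr1 alleles (genotype Fgfr1f/f), and its labels name no Cre. The FGFR1-CKO group carried the same floxed alleles with DMP1-CreER, a tamoxifen-activated Cre recombinase driven by the promoter of Dmp1, a matrix protein gene of late osteoblasts and osteocytes. Mice of both genotypes ate tamoxifen chow (400 mg/kg) for 4 weeks from 12 weeks of age, and the femoral shaft was taken at 16 weeks, flushed of marrow and used for RNA as a whole, so the recombined cells were 1 part of the tissue. The submitters had sequenced 6 Control and 7 FGFR1-CKO samples and kept 4 of each, those with the highest Fgfr1 in Control and the lowest in FGFR1-CKO. Sex and batch are absent from the labels. So is any word on whether the libraries are from separate mice, and a p-value then measures how far these libraries spread, which may be technical.

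Actin filaments grow when formins and Ena/VASP proteins add monomers at the barbed end, gain stiffness when fascin, plastin or synaptopodin hold them side by side, and are kept from sliding on myosin by caldesmon and calponin. Ezrin ties filaments to the plasma membrane, and small GTPases such as that of Rhoc switch formins and myosin on. In bone, osteoblasts and osteocytes use this machinery for adhesion to matrix and for the dendritic processes that osteocytes send through the mineral, and PLS3 is a human gene in which loss-of-function variants cause X-linked osteoporosis.

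Library totals recovered from the deposited values ran from 9642436 to 11094287 reads, and the listed genes held 24.2% to 35.1% of the reads in a library. Each of the 9 genes had between 325 and 1752 reads in every library, for which counting error alone gives coefficients of variation of 2.44% to 5.40% within a group. Values are CPM, reads scaled to the same library total, and tests were made with limma on log2(CPM + 1) over all listed genes. A gene is said to have risen or fallen where the Benjamini-Hochberg adjusted p was under 0.05 and the log2 fold change (FGFR1-CKO over Control) was at least 0.5 in size. FGFR1-CKO replicate 3 stood apart over the listed genes, with a chi-square per degree of freedom of 55.3 to 74.9 against the other libraries of its group, which differed from each other by 4.71 to 7.70. Control pairs ran from 18.9 to 65.0, with replicate 2 farthest from replicates 1 and 4, and no single Control library stood apart in this way. Fgfr1 itself, the targeted gene, read 677, 506, 579 and 615 CPM in the Control libraries and 346, 310, 339 and 275 CPM in the FGFR1-CKO libraries. It fell (log2 fold change −0.90, SE 0.10, limma adjusted p = 1.87e-05), and since the libraries were picked on Fgfr1 this is a check of the labels and no finding. The same picked libraries give the values of every other gene, and what the choice did to their differences, intervals and p-values was not tested.

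Diaph3 and Ezr rose and Fscn1, Pls3 and Cald1 fell in FGFR1-CKO bone. The other 4 genes, Enah, Synpo, Cnn3 and Rhoc, read lower in FGFR1-CKO but stayed under the fold threshold. Across all listed genes 36.6% were called higher and 38.4% lower, beside 2 and 3 of the 9 actin regulators. Without FGFR1-CKO replicate 3, and without both it and Control replicate 4, a pair taken from an earlier account of these data, the actin regulators called were 2 higher and 4 lower, Rhoc being the one added. In every one of the 9 genes the 4 Control and 4 FGFR1-CKO libraries did not overlap, 2 with FGFR1-CKO above and 7 with FGFR1-CKO below. Groups lay apart with FGFR1-CKO higher in 35.6% of all listed genes and lower in 54.9%, so separated groups are the usual state of a gene in this sheet. The median log2 fold change was −0.47 over the 9 genes and −0.43 over all listed genes. An exact 2-sided permutation test over the 8 libraries gave p = 0.0286 for each of the 9 genes, the smallest value that 4 against 4 libraries allow. Groups that do not overlap must give this value, so the test restates that separation and adds nothing to it.

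**Figure D1:**
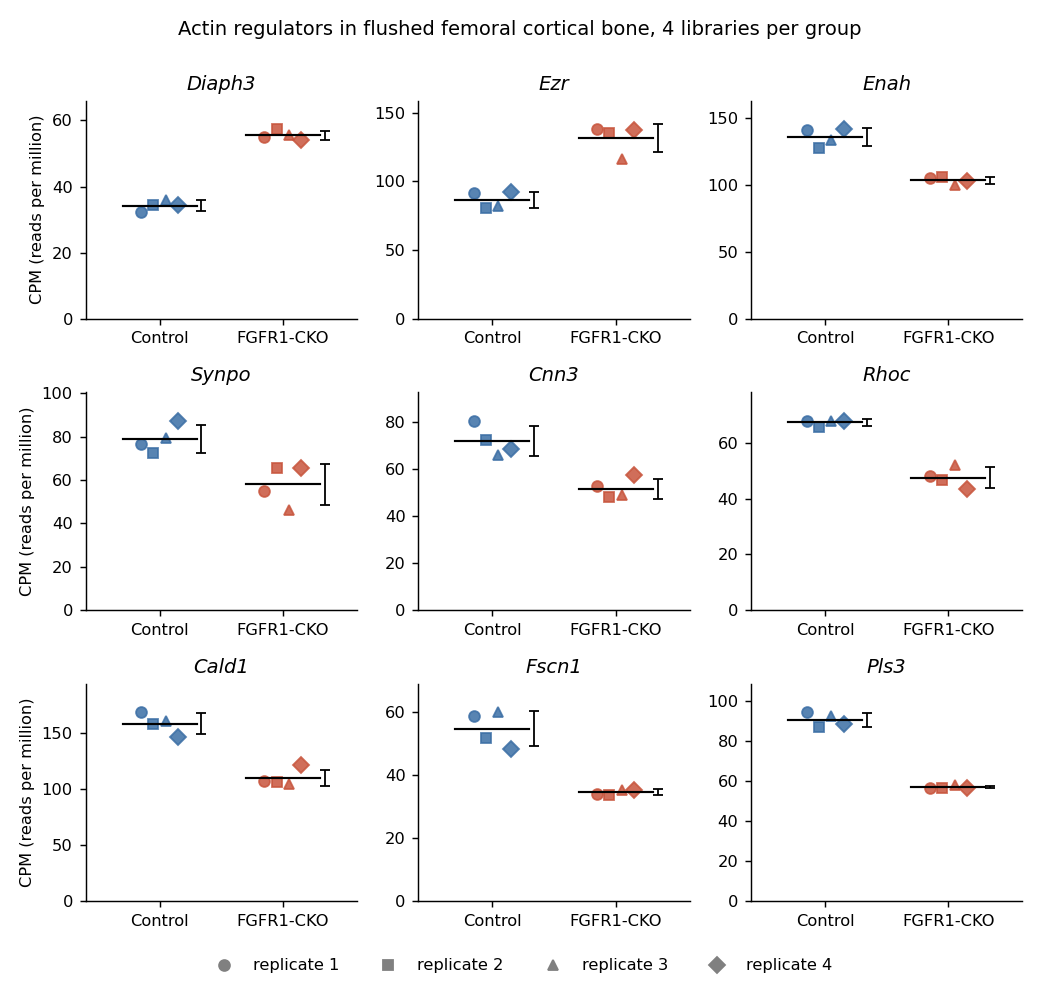
Level of each actin regulator in CPM by library, 1 panel per gene, with 1 symbol per library, a line at the group mean and an error bar of 1 SD (n = 4 per group). Diaph3 and Ezr are higher in FGFR1-CKO, the other 7 genes are lower, and no panel shows an overlap between groups.

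The sequence just before the gene start is shown for 4 of the 5 genes called. Diaph3 and Ezr rose, and Pls3 and Cald1 fell. Fscn1, which also fell, is not shown. Each line gives 250 bases from RefSeq on GRCm38.p6 in the direction of transcription, ending at the base before the annotated start. Capitals mark matches to the letters CATTCC (bound by TEAD factors), TGANTCA (bound by AP-1) or CCAAT (bound by NF-Y), on either strand, with the palindromic TGANTCA counted once. The windows are chr14:87141225-87141474 for Diaph3 on the minus strand, chr17:6782781-6783030 for Ezr on the minus strand, chrX:75875183-75875432 for Pls3 on the minus strand and chr6:34598254-34598503 for Cald1 on the plus strand.
Diaph3: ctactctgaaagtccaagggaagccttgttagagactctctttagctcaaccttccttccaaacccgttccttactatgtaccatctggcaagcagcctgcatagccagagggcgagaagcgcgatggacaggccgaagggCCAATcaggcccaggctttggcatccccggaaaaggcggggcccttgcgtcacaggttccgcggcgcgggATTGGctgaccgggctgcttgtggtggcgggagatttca
Ezr: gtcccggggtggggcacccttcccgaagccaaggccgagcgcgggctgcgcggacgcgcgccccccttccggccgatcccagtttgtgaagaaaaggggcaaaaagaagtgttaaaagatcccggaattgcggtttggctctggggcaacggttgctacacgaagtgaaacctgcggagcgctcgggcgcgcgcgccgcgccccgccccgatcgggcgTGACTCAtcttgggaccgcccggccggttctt
Pls3: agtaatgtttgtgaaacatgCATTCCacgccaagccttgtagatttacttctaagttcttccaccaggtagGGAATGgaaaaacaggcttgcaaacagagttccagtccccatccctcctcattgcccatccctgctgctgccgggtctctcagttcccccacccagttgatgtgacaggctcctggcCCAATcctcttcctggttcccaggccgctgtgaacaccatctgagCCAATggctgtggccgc
Cald1: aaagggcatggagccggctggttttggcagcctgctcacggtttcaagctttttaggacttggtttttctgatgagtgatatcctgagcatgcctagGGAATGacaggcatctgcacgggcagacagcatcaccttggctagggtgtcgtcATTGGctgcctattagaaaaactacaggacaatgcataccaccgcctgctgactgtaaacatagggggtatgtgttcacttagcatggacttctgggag
Diaph3 held 2 CCAAT matches, 109 and 39 bases before the start, and no match to the other letters shown. Ezr held the AP-1 letters 32 bases before the start and no CCAAT. Pls3 held the TEAD letters 230 and 179 bases before the start and CCAAT at 62 and 17 bases, and Cald1 held the TEAD letters 153 bases before the start and 1 CCAAT. The window of Fscn1, the fallen gene not shown, held no TEAD, AP-1 or CCAAT letters. Windows were read for 8 of the 9 genes at 11 annotated starts, and Synpo was not used here. TEAD letters occurred in 2 of the 8 genes and in 12.6% of 32536 windows genome-wide. AP-1 letters occurred in 2 genes and 6.73% of windows, and CCAAT in 4 genes and 33.8% of windows. The GC box letters GGGCGG, searched for but not marked, occurred in 5 genes and 33.0% of windows. A gene was counted if any of its starts matched, while the genome-wide shares are per window, so they are not directly comparable. The genes with AP-1 letters were Ezr and Cald1, in Cald1 197 bases before another annotated start that is not shown. CCAAT occurred in genes of both directions. No window of these genes held the CArG box bound by SRF, found in 1.48% of all windows, or the E2F letters TTTGGCG or TTTCCCG on either strand, found in 3.95%. A match is a description of letters and says nothing of binding.

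Diaph3 (ENSMUSG00000022021, mm10 chr14:86655367-87141235, minus strand) encodes a formin that nucleates straight filaments and builds filopodia, and in dividing cells formins assemble the cytokinetic ring. Its level was 32.1, 34.3, 36.0 and 34.5 CPM in the 4 Control libraries and 54.9, 57.4, 55.7 and 54.1 CPM in the 4 FGFR1-CKO libraries. The lowest FGFR1-CKO library lay 18.05 CPM above the highest Control library. The mean went from 34.3 ± 1.59 to 55.5 ± 1.41 CPM (SD, n = 4), a log2 fold change of 0.68 (SE 0.066, 95% interval 0.54 to 0.83, limma adjusted p = 8.90e-06). The call held under every rescaling and left-out library tried, and was lost when a red cell marker score entered the fit, as given below. A 3.17% share of the 100-base windows of its longest protein-coding transcript in GENCODE M21 also occurs in Gm45403, so a few of its reads could be assigned to either gene, and Gm49159 and Gm23438 lie within its bounds on the same strand.

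Ezr (ENSMUSG00000052397, mm10 chr17:6738041-6782784, minus strand) encodes ezrin, which links cortical actin to membrane proteins and is best known from epithelial microvilli. It read 91.2, 80.9, 82.1 and 91.9 CPM in Control and 137.9, 135.4, 116.5 and 137.2 CPM in FGFR1-CKO. Replicate 3 was the low FGFR1-CKO library, still 24.6 CPM above the highest Control library. The mean rose from 86.5 ± 5.86 to 131.8 ± 10.2 CPM (SD, n = 4), a log2 fold change of 0.60 (SE 0.080, 95% interval 0.42 to 0.78, limma adjusted p = 4.14e-05). With CPM rescaled by the authors' size factors the log2 fold change was 0.49, under the threshold. Of the 2 that rose, Ezr is therefore the call that depends on the scaling.

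Markers of several other cells moved with both genes. The share of all listed genes called higher, 36.6%, is to be read beside these counts. All 33 listed genes of 34 in a cell division list rose, and their summed level was 2625 to 3012 CPM in Control and 4622 to 4933 CPM in FGFR1-CKO. All 20 listed genes of 21 in a red cell precursor list rose, from a summed 7218 to 10238 CPM in Control to 20940 to 24864 CPM in FGFR1-CKO, and all 9 listed of 19 neutrophil markers rose, from 8703 to 10788 CPM to 14373 to 16837 CPM. All 5 listed of 16 B cell markers rose, from a summed 43.3 to 74.8 CPM to 96.1 to 135.9 CPM, whereas the 3 listed of 17 monocyte and macrophage markers did not pass and summed to 447 to 656 CPM in Control and 340 to 427 CPM in FGFR1-CKO. With the mean log2 level of the red cell markers added to the limma fit, Diaph3 had a log2 fold change of 0.34 (SE 0.267, adjusted p = 0.455) and Ezr one of 1.12 (SE 0.333, adjusted p = 0.116), and none of the listed genes was called, with 438 at an unadjusted p under 0.05. The red cell score did not overlap between the genotypes, so its part and that of the genotype cannot be told apart, and the part of the other lists was not tested. In bulk bone, fewer cells of a type and less RNA per cell cannot be told apart, and the same holds for more cells and more RNA.

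By the root-mean-square difference of log2(CPM + 1) around each gene's own mean over the 8 libraries, the 3 listed genes whose pattern was nearest to Diaph3 were E2f1, a transcription factor of S phase entry (0.023), Ccndbp1, a cyclin D binding protein (0.044), and Nfe2, a red cell and platelet lineage transcription factor (0.045). Nearest to Ezr were the replication stress protein Topbp1 (0.022), the spindle checkpoint kinase Bub1 (0.029) and the DNA primase subunit Prim1 (0.037). Ezr, the nearest of the 9 genes to Diaph3, lay at 0.125. The measure takes in the difference between the 2 groups as well as the spread inside each.

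Pls3 (ENSMUSG00000016382, mm10 chrX:75785654-75875182, minus strand) encodes plastin 3, also called fimbrin, which packs filaments into tight bundles. It read 94.4, 87.0, 92.2 and 88.4 CPM in Control and 56.7, 56.4, 57.7 and 56.6 CPM in FGFR1-CKO. The FGFR1-CKO libraries had a coefficient of variation of 1.06%, the smallest in either group of any of the 9 genes and below the 4.21% that counting error alone gives at their mean read number. The mean fell from 90.5 ± 3.40 to 56.9 ± 0.605 CPM (SD, n = 4), a log2 fold change of −0.66 (SE 0.062, 95% interval −0.80 to −0.52, limma adjusted p = 8.33e-06).

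Fscn1 (ENSMUSG00000029581, mm10 chr5:142960343-142973185, plus strand) encodes fascin, the bundler of filopodia and of other thin cell processes. It read 58.8, 52.0, 60.1 and 48.4 CPM in Control and 34.1, 33.7, 35.5 and 35.4 CPM in FGFR1-CKO. Control replicate 4 was the lowest Control library and still lay 12.99 CPM above every FGFR1-CKO library. Its mean fell from 54.8 ± 5.55 to 34.7 ± 0.883 CPM (SD, n = 4), a log2 fold change of −0.64 (SE 0.082, 95% interval −0.82 to −0.46, limma adjusted p = 3.11e-05). The ratio of Fscn1 to Pls3 within a library was 0.605 ± 0.044 in Control and 0.609 ± 0.012 in FGFR1-CKO, a difference of 0.01 on the log2 scale with overlapping groups.

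Synpo (ENSMUSG00000043079, mm10 chr18:60593973-60660142, minus strand) encodes synaptopodin, an actin-associated protein of kidney podocytes and dendritic spines that binds alpha-actinin. It read 76.4, 72.4, 79.3 and 87.3 CPM in Control and 54.9, 65.6, 46.0 and 65.6 CPM in FGFR1-CKO. The groups lay only 6.74 CPM apart, the narrowest gap of the 9 genes, and FGFR1-CKO replicate 3 was the lowest library. Its log2 fold change was −0.45 (SE 0.114, 95% interval −0.70 to −0.20, limma adjusted p = 2.87e-03), under the fold threshold, −0.51 without FGFR1-CKO replicate 2 or without replicate 4, and −0.29 without both Control replicate 4 and FGFR1-CKO replicate 3.

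Cald1 (ENSMUSG00000029761, mm10 chr6:34598500-34775473, plus strand) encodes caldesmon, which lies along filaments with tropomyosin and restrains myosin. It read 168.6, 157.9, 160.7 and 146.0 CPM in Control and 107.3, 106.2, 104.7 and 121.0 CPM in FGFR1-CKO. Replicate 4 was the high FGFR1-CKO library, and the groups lay 24.9 CPM apart. The mean fell from 158.3 ± 9.39 to 109.8 ± 7.55 CPM (SD, n = 4), a log2 fold change of −0.52 (SE 0.074, 95% interval −0.69 to −0.36, limma adjusted p = 6.36e-05). Without Control replicate 1 the log2 fold change was −0.49, under the threshold. Cald1 overlaps Gm13861, Npn2 and Gm14547 on the other strand, and whether reads were counted by strand is not given in the sources used here.

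Cnn3 (ENSMUSG00000053931, mm10 chr3:121426497-121458207, plus strand) encodes calponin 3, a calponin not confined to smooth muscle, which binds filament sides and slows myosin. It read 80.7, 72.5, 65.9 and 68.6 CPM in Control and 52.7, 48.0, 48.8 and 57.4 CPM in FGFR1-CKO. The groups lay 8.49 CPM apart. Its log2 fold change was −0.47 (SE 0.086, 95% interval −0.66 to −0.28, limma adjusted p = 3.57e-04), under the fold threshold, and it passed the threshold without Control replicate 3 (−0.51) or FGFR1-CKO replicate 4 (−0.52). The ratio of Cnn3 to Cald1 was 0.454 ± 0.031 in Control and 0.471 ± 0.016 in FGFR1-CKO, with overlapping groups. A 1.54% share of the 100-base windows of the Cnn3 transcript occurs in 2 other genes, mostly Gm4815, its 5′ end overlaps Gm42928 on the other strand, and Gm42929 lies within its bounds on the same strand.

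Enah (ENSMUSG00000022995, mm10 chr1:181896384-182019990, minus strand) encodes the Ena/VASP protein Mena, which keeps barbed ends growing at the leading edge and at focal adhesions. It read 140.5, 127.1, 133.3 and 141.3 CPM in Control and 104.7, 105.4, 99.3 and 102.7 CPM in FGFR1-CKO. Both groups were tight and lay 21.7 CPM apart. Its log2 fold change was −0.39 (SE 0.065, 95% interval −0.53 to −0.25, limma adjusted p = 1.75e-04), the smallest of the 9 genes, and its ratio to Pls3 went from 1.499 ± 0.069 to 1.81 ± 0.066 with no overlap. The genes 2700078F05Rik, Gm38359, Gm37018 and Gm37258 lie within the bounds of Enah on the same strand.

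Rhoc (ENSMUSG00000002233, mm10 chr3:104788375-104794459, plus strand) encodes a small GTPase that activates formins and the ROCK kinases and is studied for its role in cell migration. It read 67.9, 65.8, 68.1 and 68.2 CPM in Control and 48.1, 46.8, 52.3 and 43.4 CPM in FGFR1-CKO. The Control libraries were tight and the groups lay 13.5 CPM apart. Its log2 fold change of −0.496 (SE 0.072, 95% interval −0.65 to −0.34, limma adjusted p = 7.23e-05) came just short of the threshold. It passed by a small margin with a pseudocount of 0.1 (−0.504), with Control replicate 2 left out (−0.508) and with FGFR1-CKO replicate 1 left out (−0.502), and reached −0.54 without FGFR1-CKO replicate 3. The ratio of Rhoc to Cald1 was 0.428 ± 0.028 in Control and 0.437 ± 0.058 in FGFR1-CKO, with overlapping groups, although Cald1 was called and Rhoc was not.

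**Figure D2:**
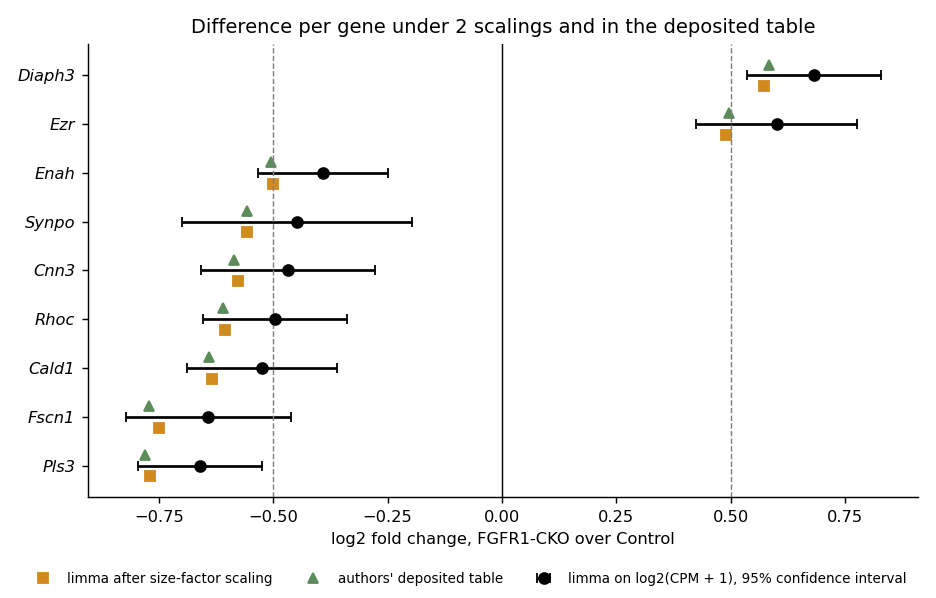
Log2 fold change of each actin regulator (FGFR1-CKO over Control) from limma on log2(CPM + 1) as circles with the 95% interval, from limma after size-factor scaling as squares and from the authors' deposited table as triangles, with dashed lines at 0.5 and −0.5. Diaph3 and Ezr lie above 0 and the other 7 genes below in all 3, and squares and triangles lie to the left of the circles.

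The scaling of the libraries bears on each of these calls. The deposited CPM divide reads by the library total alone, while the authors' fold changes used size factors. Scaled by those factors, the median listed gene moved by −0.11 on the log2 scale, called genes became 651 higher and 1154 lower in place of 729 and 766, and the share of calls that were lower went from 51.2% to 63.9%. Under that scaling Enah (−0.50), Synpo (−0.56), Cnn3 (−0.58) and Rhoc (−0.61) also passed, giving 7 lower and 1 higher, Diaph3. No listed gene changed sign. The authors' deposited table gives log2 fold changes of 0.58 for Diaph3, 0.50 for Ezr, −0.51 for Enah, −0.56 for Synpo, −0.59 for Cnn3, −0.61 for Rhoc, −0.64 for Cald1, −0.77 for Fscn1 and −0.78 for Pls3. In the authors' deposited table Ezr lies almost at the smallest absolute change listed, 0.495.

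Ratios between genes of the same library do not depend on the scaling. A higher gene over a lower gene must shift upward here, since the groups of each gene already lay apart, and these values are given as sizes only. The 14 such ratios shifted by 1.00 (Ezr over Enah) to 1.37 (Diaph3 over Pls3) on the log2 scale. Diaph3 over Pls3 went from 0.379 ± 0.026 to 0.976 ± 0.028 (SD, n = 4), and Ezr over Pls3 from 0.957 ± 0.064 to 2.32 ± 0.20. Diaph3 over Ezr was 0.398 ± 0.041 in Control and 0.423 ± 0.039 in FGFR1-CKO, with overlapping groups. Among the 21 pairs of lower genes 1 pair, Enah over Pls3, had groups that did not overlap, and the other 20 overlapped. The group means of Enah over Pls3 differed by 0.27 on the log2 scale. Its highest Control library was at 0.677 and its lowest FGFR1-CKO library at 0.783.

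**Figure D3:**
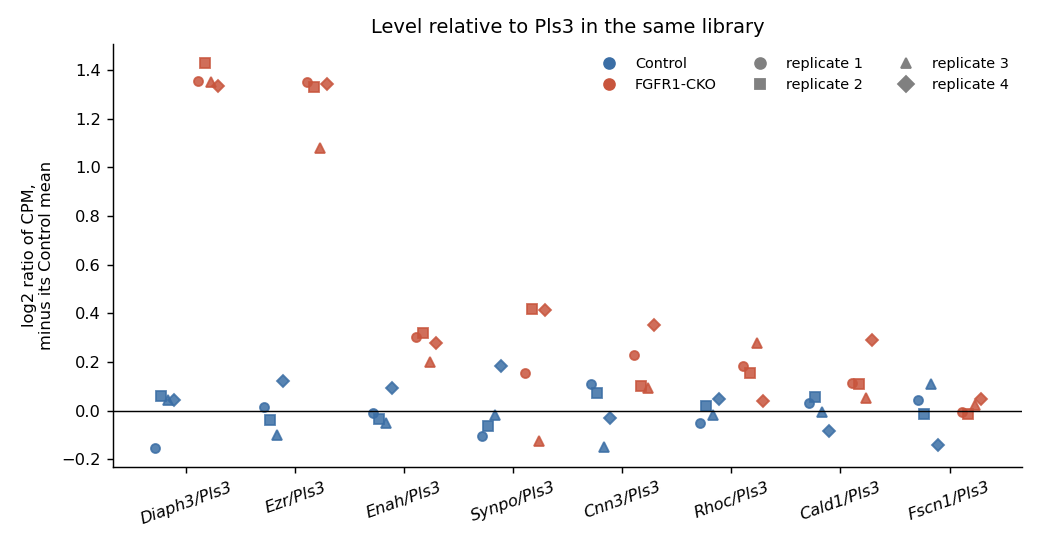
Log2 ratio of the CPM of each other actin regulator to Pls3 in the same library, less the mean of that ratio in Control, with 1 symbol for each of the 4 Control and 4 FGFR1-CKO libraries. Diaph3 and Ezr shift upward with no overlap, Enah shifts by 0.27 on the log2 scale and the other 5 overlap between groups.

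Divided by exon length, Rhoc was the most abundant of the 9 genes in Control at 41.7 ± 0.702 CPM per kb (SD, n = 4), followed by Ezr at 26.3 ± 1.78, Cnn3 at 23.7 ± 2.13, Pls3 at 21.4 ± 0.801, Fscn1 at 18.2 ± 1.84, Cald1 at 13.1 ± 0.780, Synpo at 8.27 ± 0.665, Enah at 6.32 ± 0.313 and Diaph3 at 6.15 ± 0.286. Ezr and Cnn3, Cnn3 and Pls3, and Enah and Diaph3 had library ranges that overlapped, and the other neighbours in this order did not. In FGFR1-CKO the order was Ezr (40.0 ± 3.10 CPM per kb), Rhoc (29.5 ± 2.26), Cnn3 (17.02 ± 1.42), Pls3 (13.4 ± 0.143), Fscn1 (11.5 ± 0.293), Diaph3 (9.97 ± 0.254), Cald1 (9.12 ± 0.627), Synpo (6.09 ± 0.993) and Enah (4.80 ± 0.127). Diaph3 and Cald1, and Synpo and Enah, had overlapping ranges. Ezr thus went from below Rhoc to above it, with ranges apart in both groups, and Diaph3 left the last place. Lengths are the union of all annotated exons, which understates genes with long rare isoforms such as Enah.

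Nearest to Pls3 were Mgat3, a glycosyltransferase gene (0.026), 2700081O15Rik (0.031) and Ibsp, the bone sialoprotein gene (0.038). Nearest to Fscn1 were the protocadherin Pcdh18 (0.045), the adhesion docking protein Bcar1 (0.049) and Dmp1, whose promoter drives the Cre (0.050), and nearest to Cald1 were the LIM protein Wtip (0.014), the receptor Heg1 (0.041) and the small GTPase Rnd3 (0.045). Cnn3 was closest to Cilk1 (0.040), Dixdc1 (0.042) and the integrin activator Fermt2 (0.043), Enah to Evc (0.025), 9130024F11Rik (0.029) and Clstn1 (0.030), Synpo to Ube2e2 (0.042), Nicn1 (0.048) and Apbb2 (0.049), and Rhoc to Plcd1 (0.036), Pdgfd (0.038) and Fam129b (0.041). Listed markers of bone cells and of vessel cells also read lower in FGFR1-CKO. Of all listed genes 38.4% were called lower, and the vessel cell counts lie nearer to this share than the bone cell counts. Of 21 listed osteoblast markers (of 23) 20 fell, from a summed 137071 to 189920 CPM in Control to 75868 to 121845 CPM in FGFR1-CKO, and 19 fell without FGFR1-CKO replicate 3. Of 11 listed osteocyte markers (of 17) 10 fell (2813 to 3346 CPM against 1788 to 1948 CPM), of 8 listed pericyte and smooth muscle markers (of 15) 4 fell (1061 to 1277 CPM against 687 to 869 CPM), and of 10 listed endothelial markers (of 16) 6 fell (537 to 697 CPM against 385 to 439 CPM). Their part in the lower levels of the 7 genes was not tested. None of the 14 skeletal muscle markers was listed.

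Those of the authors' own lists read here held almost only genes lower in FGFR1-CKO. Lower genes were 54 of 54 listed in a cytoskeleton list and 43 of 44 in a focal adhesion list. They were 78 of 78 in a neuron development list and 72 of 72 in a cell migration list. Fscn1, Pls3 and Cnn3 were in the cytoskeleton list and Enah and Cnn3 in the focal adhesion list. Enah was also in the neuron development list and Rhoc in the cell migration list. Diaph3, Ezr, Cald1 and Synpo were in none of them, which for the higher genes Diaph3 and Ezr was nearly fixed by the make-up of the lists. The other actin genes were taken from 12 role lists of 310 genes, 58 of them listed in the sheet. Leaving out the 9 genes, 49 were listed, of which 16 rose, 22 fell and 11 did not pass, with a median log2 fold change of −0.46. Across all listed genes 36.6% were called higher and 38.4% lower, with a median of −0.43, so these counts lie near the sheet as a whole. The counts per role below are to be read against the same shares. Scaled by size factors the 49 genes were 15 higher, 31 lower and 3 not passed, beside 651 higher and 1154 lower of all 1994 listed genes. Without FGFR1-CKO replicate 3 the 49 were 16, 19 and 14, beside 725 higher and 701 lower of all listed genes.

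Formins and other nucleators went both ways. Beside Diaph3, Fhdc1 (log2 fold change 0.78) and Spire1 (0.64) rose, and Fmn1 (−0.63), Daam2 (−0.53) and Fhod3 (−0.64) fell, so 3 of the 6 listed rose and 3 fell, 2 without FGFR1-CKO replicate 3. The list's median of 0.06 turned to −0.05 under size-factor scaling. Of barbed-end genes, the adducin Add2 (1.07) and the tropomodulin Tmod1 (0.91) rose, while Eps8l1 (−2.71), Raph1 (−0.56), Carmil1 (−0.51) and Scin (−0.77) fell, with 3 falling without FGFR1-CKO replicate 3. Eps8l1 and Scin were low genes, with means of 13.3 and 7.31 CPM in Control and 1.08 and 3.68 CPM in FGFR1-CKO. Add2 and Tmod1 are also known from the red cell membrane skeleton.

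All 8 listed bundlers and crosslinkers read lower, as did 1265 of the 1994 genes in the authors' deposited table. Of the 8, 4 fell and 4 did not pass, with 7 falling under size-factor scaling and 5 without FGFR1-CKO replicate 3. Pls3, Fscn1, Dbn1 (−0.64) and Palld (−0.67) fell, and those that did not pass included Synpo, Mical2 (−0.38) and Pdlim4 (−0.46). Of filament-side genes, Coro1a, a coronin of blood cells, rose (0.69) opposite to Cald1. Of 4 small GTPases, Rnd3 (−0.52) and Rhoj (−0.50) fell and Rhoc and Rhod (−0.46) did not pass, while all 4 fell under size-factor scaling. The Arp2/3 activators Abi2 (−0.42), Nckap1 (−0.40) and Cttn (−0.39) did not pass, while 2 of these 3 fell under size-factor scaling.

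Membrane linkers held 6 of the 18 listed actin genes that rose. Beside Ezr, those that rose included Dmtn (1.06), Epb41 (0.90), Ank1 (0.99) and Sptb (0.73), which are components of the red cell membrane skeleton, and Epb41l1 (−0.64), Podxl (−0.77) and Slc9a3r2 (−0.52) fell, with Epb41l2 (−0.46) and Epb41l3 (−0.40) not passing. Of GTPase effectors, the cytokinesis regulators Racgap1 (0.78) and Ect2 (0.69) rose with Rtkn2 (0.56), and Cdc42ep1 (−0.61) and Rhpn2 (−0.80) fell. Of 9 myosins and light chain genes 2 rose, Mylk3 (0.91) and Myo1g (0.63), and 5 fell, Myo1e (−0.60), Myo10 (−0.68), Myo6 (−0.55) and Myh11 (−0.88) among them (7 under size-factor scaling and 4 without FGFR1-CKO replicate 3), while Myo1d (−0.49) and Mylk (−0.45) did not pass. The turnover factor Gmfg rose (0.67), smooth muscle actin Acta2 fell (−0.79) and no SRF cofactor was listed.

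**Figure D4:**
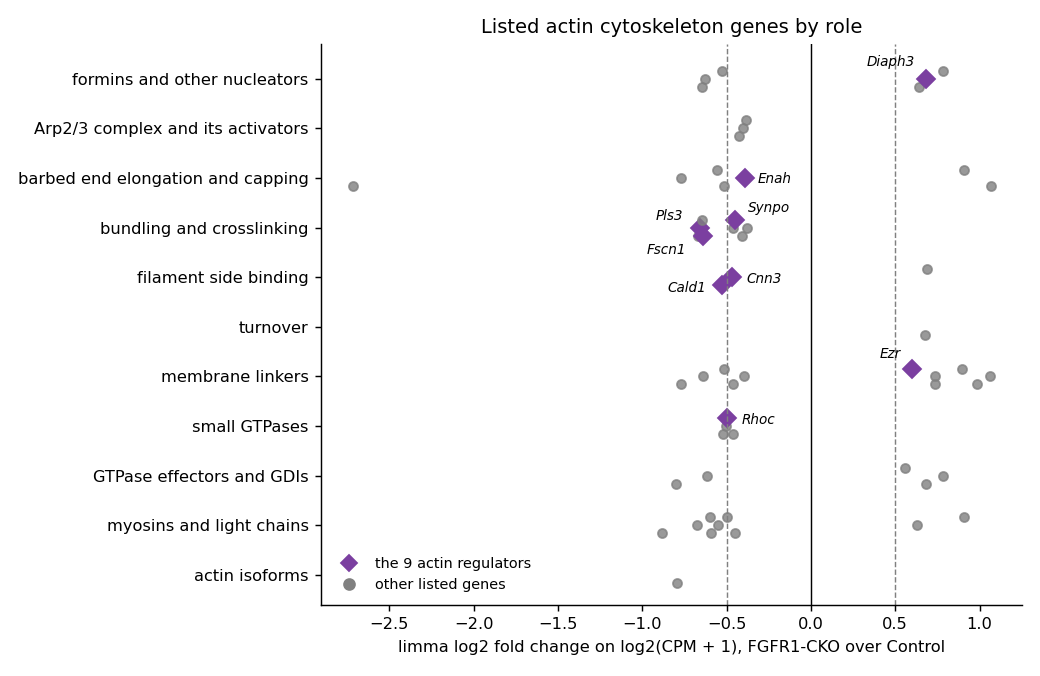
Log2 fold change (FGFR1-CKO over Control, limma on log2(CPM + 1)) of every listed actin gene, 1 row per role, with diamonds for the 9 actin regulators and dots for the other 49. Bundling genes and small GTPases all lie below 0, while formins, membrane linkers and GTPase effectors lie on both sides.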

How the data were processed

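RNA of flushed femoral cortical bone was depleted of ribosomal RNA and sequenced in read pairs, per the labels' protocols. Per the submitters' processing notes, the build was mm10 and the tools included DESeq2, edgeR, RSEM, Subread 2.0.1 with featureCounts, STAR 2.7.9a and cutadapt, with no step assigned to any of them. Annotation version and strand setting: not given in the sources used here. As CPM per library the authors deposited reads divided by the library total with no further scaling, as 100.0% of values were whole reads within 0.001 reads at the totals recovered. Beside them the authors deposited a mean normalized count (a signal averaged over the 8 libraries), log2 fold changes with their standard errors, raw and adjusted p-values, and a ratio of mean CPM with its log2, per the file headers. Other deposited sheets gave gene symbols of lists.

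Computed here were limma 3.58.1 fits in R 4.3.3 (eBayes with trend, genotype alone, 2-sided) on log2(CPM + 1) of the 1994 listed genes, with Benjamini-Hochberg adjustment over them, and exact permutation tests over libraries (scipy 1.17.1). Fold changes on this scale understate the change of low genes. The size factors were recovered from the deposited mean normalized counts, and size-factor scaling applies them to the reads. The fit was also run on simulated data in which most genes did not change. The sheet holds genes selected for differing, so that run does not bear on the calls made here. Library totals were 9642436 to 11094287 reads, and replicates differed by more than sampling noise. Replicates were numbered by accession, so the numbers pair no samples. Count models planned for the recovered reads were not run. The sheet is a selection of genes and the values used here are CPM. Positions and exon lengths come from GENCODE M21, and promoter letters from RefSeq on GRCm38.p6, read for 8 of the 9 genes. Synpo was left out of that reading.

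The 9 genes and all gene lists were chosen with earlier results of these data known. Named genes are the 9 members, Fgfr1, the listed genes of each actin list and, per member, the 3 genes of nearest pattern. The rule asked for values of up to 4 genes per actin list, and values of most listed ones are given. Values of 3 listed genes are not reported here.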

Additional observations from a re-analysis of the deposited data

Results flagged for a closer look

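In 3 of 20 groups of 4 libraries, 1 library lay far from the other 3 of the group, its gap to the nearest as a share of the group's whole range exceeding Dixon's critical value at 95%. Chance flags about 1 in 20 groups. Cald1 read 121.0 CPM in FGFR1-CKO replicate 4, with a gap of 0.840 of the range. Ezr read 116.5 CPM in FGFR1-CKO replicate 3, with a gap of 0.880. Rhoc read 65.8 CPM in Control replicate 2, with a gap of 0.904 in a group whose other 3 libraries lay between 67.9 and 68.2 CPM.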

How the results depend on the processing

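No paired analysis was possible because replicate numbers are accession order and carry no pairing in the labels. Listed genes called were 729 higher and 766 lower, and actin regulators 2 higher and 3 lower. Leaving out each library in turn gave 715 to 725 listed genes higher and 701 to 842 lower, with 2 to 2 actin regulators higher and 2 to 5 lower: 5 without FGFR1-CKO replicate 4, where Synpo and Cnn3 passed, and 2 without Control replicate 1, where Cald1 did not. Size-factor scaling gave 1154 listed genes lower, and 1 actin regulator higher and 7 lower. With no fold threshold, 1254 listed genes and 7 actin regulators were lower. With a red cell marker score in the limma fit, 0 listed genes were higher, 0 lower, and 0 actin regulators called, with 438 listed genes at an unadjusted p under 0.05, and Cnn3 (0.19, adjusted p = 0.764) and Fgfr1 (0.011, adjusted p = 0.989) changed sign. That score did not overlap between the genotypes. Pseudocounts of 0.1 and 5, a mean of at least 10 CPM, no trend, and leaving out both Control replicate 4 and FGFR1-CKO replicate 3 kept each of these 4 counts within 1.5 times. Count models were not run. Genes outside the sheet were not analysed here.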
